A study of Persea americana and Macadamia integrifolia and Mangifera indica with 6 samples.

Results

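miR393 and miR394 are conserved plant microRNA families whose best known targets encode F-box proteins. The members described here are all entries named miR393 or miR394 in a table of small RNA abundance from leaves of avocado, macadamia and mango. They make up 6 of the 123 entries, 3 for each family, of which 4 are named after Arabidopsis and 2 after rice. Entries with identical values in all 6 libraries were taken as 1 sequence, which left 3 of 53 distinct sequences and 2 of 20 families. For miR393 the Arabidopsis miR393a-5p and miR393b-5p entries were 1 sequence and the rice miR393a entry was another. For miR394 the Arabidopsis miR394a and miR394b-5p entries and the rice miR394 entry all had the same values. The 5p arm is named by 3 of the 6 entries, the other 3 name no arm, and 0 name the 3p arm.

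The study compared leaves of seedlings with leaves of flowering trees to follow the vegetative phase transition. In avocado (cv. Hass) and macadamia (cv. HAES741) 1 library came from trees of 1 month and 1 from trees of 10 years, and in mango (cv. Kensington Pride) the ages were 1 month and 5 years. The labels name no treatment and no transgene. Seedlings grew in a nursery (avocado) or a glasshouse (macadamia and mango) and the mature trees in the field, and mature avocado trees were grafted while mature mango trees were seedlings. Age and growing conditions therefore cannot be told apart. The leaf identity of the samples was not checked against marker genes, since the table lists only miRNAs.

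F-box proteins are the subunits of SCF ubiquitin ligases that recognize the protein to be degraded. In Arabidopsis, miR393 directs cleavage of transcripts of TIR1 and the related AFB proteins, the F-box receptors through which auxin triggers the breakdown of Aux/IAA repressors, and it is known for roles in auxin response, leaf form and antibacterial defence. miR394 targets the F-box gene LEAF CURLING RESPONSIVENESS (LCR) in Arabidopsis, and is known there for shaping the leaf blade and for moving from the outer layer of the shoot tip to keep the stem cells below it. The miR394 sequence is shown because it is the one under which the study assayed this family by PCR, with the mature miRNA itself serving as the forward primer. It is written in DNA letters, 5′ to 3′, with the seed (bases 2 to 8) in capitals.
miR394: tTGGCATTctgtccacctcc
It is 20 nt long with 55.0% G and C, and 0 of the other miRNA primers among the 6 listed by the study had the same seed. The nearest of them was miR159, which shared 5 of the 7 seed positions.

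Values are RPM, the reads of a miRNA scaled by the authors to the reads of 20 to 24 nt in its library. Every deposited value was a whole number of reads at a depth of 1141472 (juvenile mango) to 7509125 (mature avocado), the smallest depths that allow this. The table holds too few low values for a separate check that 1 step of these values is 1 read, so the read numbers and their intervals rest on this fit. A count of 3 reads, taken as the floor, equals 0.400 to 2.63 RPM over the libraries. The listed miRNAs together took 5.54% to 16.6% of the reads. No group has more than 1 library, so replicate error within a species was not measured. The intervals given for levels and ratios are exact (Clopper-Pearson) 95% intervals on the reads. They cover counting error only, and since PCR copies are not independent molecules they may be too narrow even for that.

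miR394, the regulator of LCR, was read in every library and stood lower by RPM in mature than in juvenile leaves of all 3 species, while its share of the listed miRNAs was higher in mature avocado. In avocado it stood at 2036 RPM in juvenile leaves (9376 reads) and 1618 RPM in mature leaves (12147 reads). In macadamia it stood at 819 RPM (5909 reads) and 245 RPM (421 reads), and in mango at 705 RPM (805 reads) and 127 RPM (572 reads). Both avocado libraries were thus above all others, and mature mango was the lowest. Mature leaves held less miR394 by 1.26-fold in avocado (95% interval 1.22 to 1.29), by 3.34-fold in macadamia (3.03 to 3.70) and by 5.57-fold in mango (5.00 to 6.21). As a share of the listed miRNA reads miR394 was 1.72% in juvenile and 2.89% in mature avocado leaves, whereas it was 1.08% and 0.442% in macadamia and 0.908% and 0.0762% in mango.

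miR393, the regulator of the auxin receptors, was scarce and went in different directions in the species. In avocado it had 15.8 RPM in juvenile leaves (73 reads) and 67.3 RPM in mature leaves (505 reads), a 4.24-fold higher level in mature leaves (95% interval 3.31 to 5.50). In macadamia it had 41.7 RPM (301 reads) and 25.0 RPM (43 reads), 1.67-fold lower in mature leaves (1.21 to 2.35). In mango it had 74.5 RPM (85 reads) and 5.76 RPM (26 reads), 12.9-fold lower in mature leaves (8.25 to 20.9). Juvenile avocado and mature mango were thus the low libraries, and mature avocado and juvenile mango the high ones. The avocado and mango directions were the same when levels were taken as shares of the listed miRNA reads, at 0.0134% and 0.120% in juvenile and mature avocado and 0.0959% and 0.00346% in mango. The macadamia shares, 0.0553% and 0.0452%, lay closer together.

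**Figure D1:**
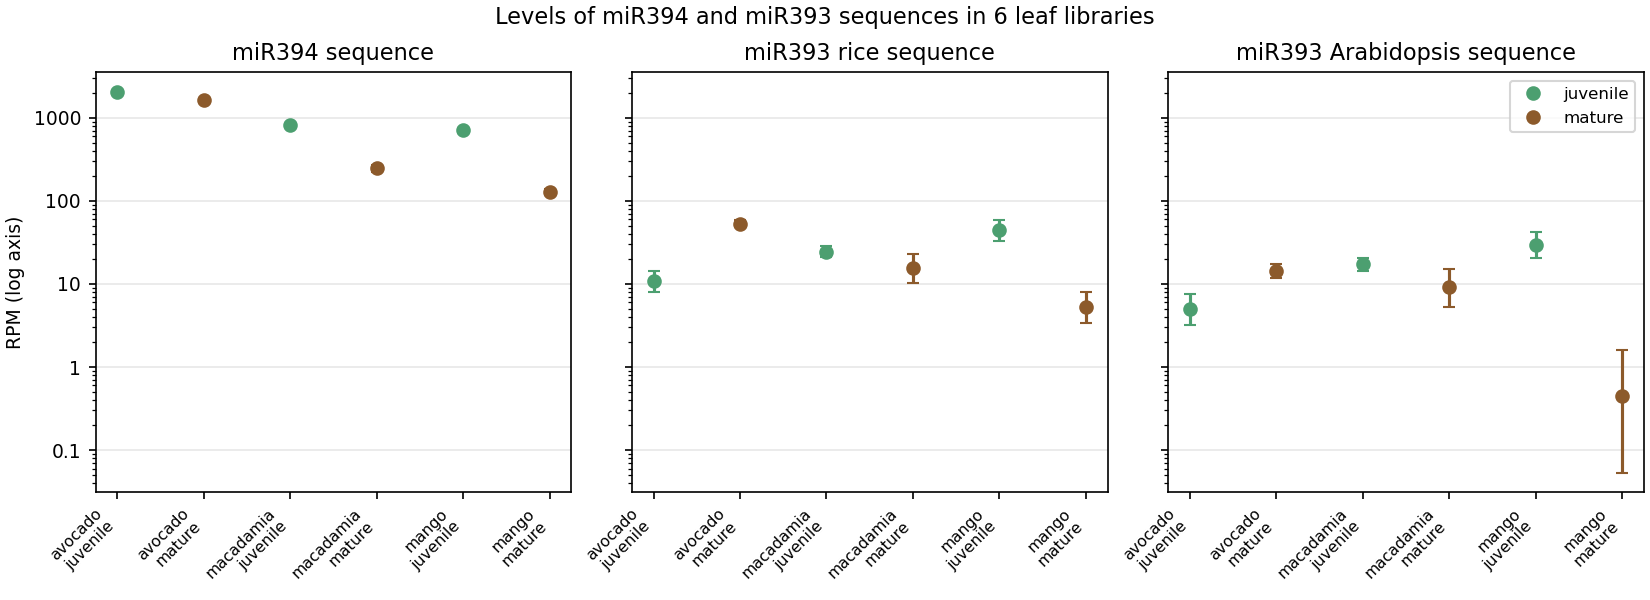
RPM (log axis) of the miR394 sequence and of the rice and Arabidopsis sequences of miR393 in the 6 libraries, as points with exact 95% counting intervals, juvenile in green and mature in brown. miR394 runs from 127 RPM in mature mango to 2036 RPM in juvenile avocado, and both miR393 sequences are higher in mature than in juvenile avocado but lower in mature than in juvenile macadamia and mango.

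Over the 6 libraries the 2 families took different orders. For miR394 the order from high to low was juvenile avocado, mature avocado, juvenile macadamia, juvenile mango, mature macadamia and mature mango, a 16.1-fold span (14.8 to 17.5). The closest neighbours were juvenile macadamia and juvenile mango, at a 1.16-fold difference (1.08 to 1.25), so that every step of this order was larger than counting error. For miR393 the order was juvenile mango, mature avocado, juvenile macadamia, mature macadamia, juvenile avocado and mature mango, a 12.9-fold span. Juvenile mango and mature avocado differed by 1.11-fold with an interval from 0.869 to 1.40, which includes no difference. The other steps ranged from 1.58-fold (1.06 to 2.33), between mature macadamia and juvenile avocado, to 2.75-fold (1.74 to 4.49), between juvenile avocado and mature mango. Among the 20 families miR394 ranked 6 to 11 by level and miR393 ranked 12 to 17.

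Juvenile leaves of the species differed in opposite ways for the 2 families. Juvenile avocado had 2.49-fold more miR394 than juvenile macadamia (2.41 to 2.57) and 2.89-fold more than juvenile mango (2.69 to 3.11). For miR393 it was the lowest, with juvenile macadamia 2.63-fold (2.03 to 3.45) and juvenile mango 4.70-fold (3.40 to 6.51) above it. In mature leaves avocado was the highest for both. It stood above mature mango by 12.8-fold for miR394 (11.7 to 13.9) and by 11.7-fold for miR393 (7.88 to 18.1), and above mature macadamia by 6.60-fold (5.99 to 7.29) and 2.69-fold (1.97 to 3.76). Reads were counted against Arabidopsis and rice sequences, so levels between species also depend on how far each species shares these sequences, which was not tested.

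The number of miR394 reads for each miR393 read does not depend on how libraries are scaled. It was 128 in juvenile avocado (102 to 164) and 24.1 in mature avocado (22.0 to 26.3), a 5.34-fold lower excess of miR394 in mature leaves. In macadamia it was 19.6 (17.5 to 22.1) and 9.79 (7.14 to 13.7), 2.01-fold lower in mature leaves. In mango it was 9.47 (7.57 to 12.0) and 22.0 (14.9 to 34.0), 2.32-fold higher. miR394 outnumbered miR393 in all 6 libraries, and within each species the intervals of the juvenile and mature libraries did not overlap. Against the rice miR393 sequence alone the mango values were 15.8 (11.9 to 21.4) and 23.8 (15.9 to 37.5), and these intervals overlap.

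The 2 miR393 sequences, whose sum is the family value, moved the same way as each other in each species. The rice sequence went from 10.9 RPM in juvenile to 52.9 RPM in mature avocado leaves, from 24.4 to 15.7 RPM in macadamia leaves and from 44.7 to 5.31 RPM in mango leaves. The Arabidopsis sequence went from 4.99 to 14.4 RPM in avocado leaves, from 17.3 to 9.31 RPM in macadamia leaves and from 29.8 to 0.443 RPM in mango leaves, the last from 2 reads. The rice sequence was the more abundant one in all 6 libraries. In mature avocado it was 4.87-fold higher (3.62 to 6.67) and the Arabidopsis sequence 2.88-fold higher (1.82 to 4.74). In mature macadamia they were 1.55-fold (1.03 to 2.42) and 1.86-fold lower (1.10 to 3.35), and in mature mango 8.41-fold (5.08 to 14.3) and 67.3-fold lower (17.2 to 578).

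The rice sequence made up 68.5% of the miR393 reads in juvenile avocado (56.6 to 78.9) and 78.6% in mature avocado (74.8 to 82.1). It made up 58.5% (52.7 to 64.1) and 62.8% (46.7 to 77.0) in juvenile and mature macadamia, and 60.0% (48.8 to 70.5) and 92.3% (74.9 to 99.1) in mango. The share was thus higher in the mature library of each of the 3 species, but the juvenile and mature intervals overlapped in avocado and macadamia and lay apart only in mango, where the mature library had 26 miR393 reads. Whether the authors' counting placed reads of 1 sequence under the other was not tested.

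**Figure D2:**
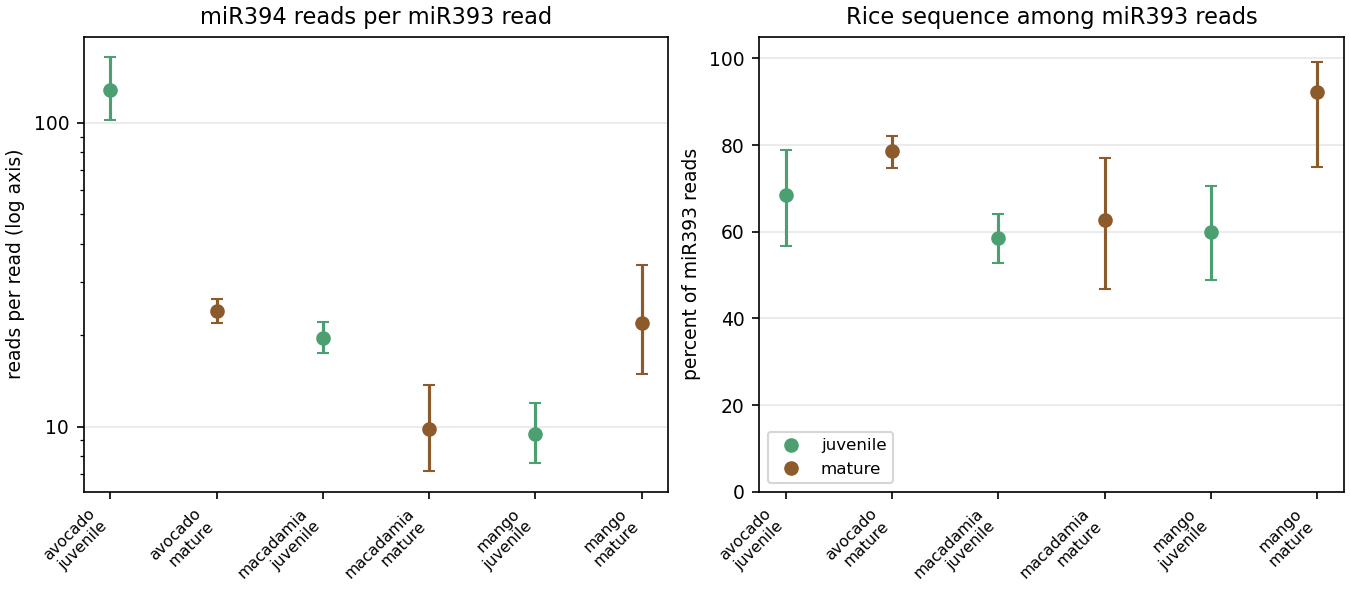
Left, miR394 reads per miR393 read (log axis), and right, the percent of miR393 reads that fall on the rice sequence, in the 6 libraries with exact 95% intervals on the reads, juvenile in green and mature in brown. The excess of miR394 is largest in juvenile avocado, at 128, and the rice share is highest in mature mango, at 92.3%.

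To place these differences among the other families, the mature over juvenile log2 ratio was taken on RPM + 1 over families with at least 10 RPM in 1 or both libraries of a species. This scale slightly understates the change of scarce families such as miR393. In avocado, 20.0% of 15 families were at least 2-fold higher in mature leaves and miR393 was 1 of these 3, with a log2 ratio of 2.02 next to 2.01 for miR172, which targets AP2-like transcripts. With a pseudocount of 5 RPM the miR393 ratio was 1.79, so the 2 families have no firm order. In macadamia 33.3% of 18 families were at least 2-fold lower, miR394 (log2 ratio -1.74) among them, while miR393 (-0.71) was under 2-fold. In mango 37.5% of 16 families were at least 2-fold lower, and both miR393 (-3.48) and miR394 (-2.47) were among these 6, with 0 and 2 families below them. The median family had a log2 ratio of -1.39 in avocado, -0.53 in macadamia and -0.05 in mango. Relative to it miR393 was at 3.41, -0.18 and -3.43 in the 3 species and miR394 at 1.06, -1.20 and -2.42, so that miR394 in avocado was lower by RPM but above the median family. The split of higher against lower families was 3 to 8 in avocado, 2 to 6 in macadamia and 5 to 6 in mango. It became 6 to 4, then 4 to 5 and 5 to 5, relative to the median family. With shares of the listed miRNA reads it was 4 to 4, then 4 to 5 and 1 to 8.

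**Figure D3:**
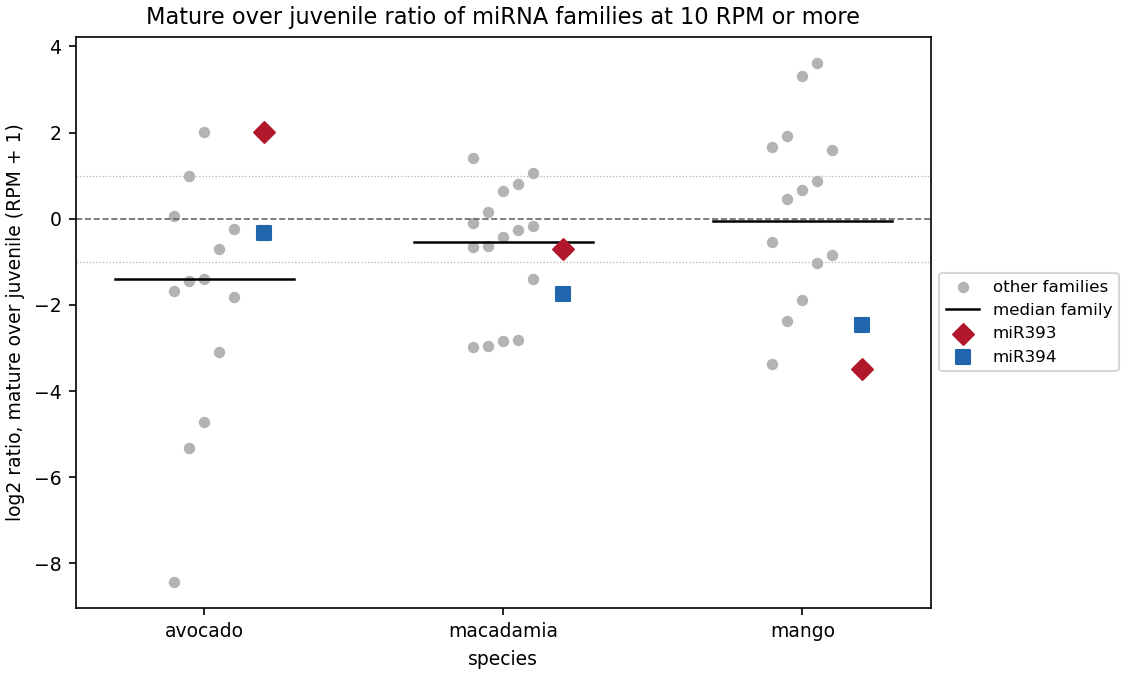
Log2 ratio of mature over juvenile leaves on RPM + 1 in each species, 1 point per family with at least 10 RPM, with miR393 as red diamonds, miR394 as blue squares, the median family as a black bar and 2-fold as dotted lines. miR393 lies beside miR172 (2.01) at the upper end in avocado (2.02) and at the lower end in mango (-3.48), and miR394 lies at -0.33, -1.74 and -2.47, below 0 in each species but above the median family in avocado.

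The log2 ratio of miR393 differed by 5.50 between avocado and mango. This range over species was the second of 16 families detected in every library, after miR395, a family that targets genes of sulphate assimilation, at 10.00. The range of miR394 was 2.14, at place 10. No test was made of these differences between species, each of which rests on single pairs of libraries.

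Taken over the 3 species as replicates, neither family passed the test. The limma fit used log2(RPM + 1), blocked by species, and took in the 13 families that reached 10 RPM in each of the 3 species. Of these, 15.4% were called lower (2 families, miR156 and miR157, which target SPL transcripts). None was called higher, and 0 of the higher ones had an unadjusted p under 0.05. miR394 had a log2 fold change of -1.51 (95% interval -3.37 to 0.35, standard error 0.91, adjusted p = 0.320 from limma) and was lower in 3 of 3 species by RPM, though not in avocado under the other scalings. miR393 had a log2 fold change of -0.73 (-2.59 to 1.14, standard error 0.91, adjusted p = 0.621 from limma) and was lower in 2 of 3 species. Without mango the miR393 estimate turned to 0.65 (adjusted p = 0.659 from limma). The standard error was pooled over the 13 families. The log2 ratios of the 3 species had an SD of 2.75 for miR393 and 1.09 for miR394, a wider spread between species for miR393 that the shared standard error does not show. An exact two-sided sign-flip test over 3 species cannot give a p under 0.250, and gave 0.250 for miR394 and 0.750 for miR393. The paper picked miR394 from these libraries as a candidate that changed with age in each species. Its own PCR, on 3 biological pools, then found no significant effect of tree age on miR394. That PCR was scaled to housekeeping RNAs, so it is a different measure from RPM.

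**Figure D4:**
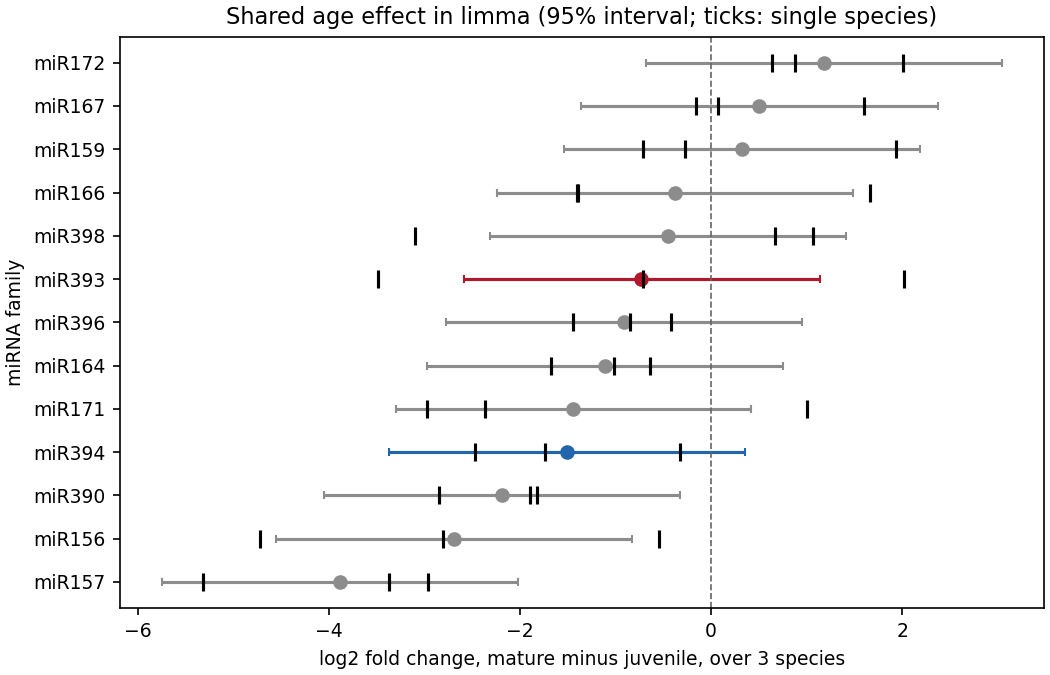
Log2 fold change of mature over juvenile leaves across the 3 species from limma, points with 95% intervals for the 13 families tested, and ticks for the single species, with miR393 in red and miR394 in blue. Both intervals include 0, the ticks of miR393 spread from -3.48 to 2.02, and those of miR394 lie below 0 by RPM, the avocado tick at -0.33 turning positive (1.06) relative to the median family.

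Of 5 auxin signalling families (miR160 and miR167, directed at ARF transcripts, miR164, directed at NAC transcripts, miR390, which guides tasiRNA production from TAS3, and miR393), 5 passed 10 RPM in avocado, 4 in macadamia and 5 in mango. In mature avocado 1 of them was at least 2-fold higher by RPM (miR393) and 2 were lower. Over all families these shares were 20.0% and 53.3%. In mature macadamia 1 was lower (33.3% over all families), and mature mango had 2 that were higher and 3 that were lower (31.2% and 37.5% over all families). Relative to the median family, or as shares of the listed miRNA reads, the avocado counts were 3 or 2 higher, miR393 among them each time, and 0 lower. Over all 15 families in avocado 6 or 4 were then higher, and 4 were lower each time. In mango the list counts were 2 or 1 higher and 2 or 3 lower. There miR164 was under 2-fold relative to the median family, and miR167 as a share. Over all families in mango 5 of 16 or 1 of 15 were higher, and 5 of 16 or 8 of 15 lower. The median log2 ratio of the list was -0.24, -0.68 and -1.02 in the 3 species, beside -1.39, -0.53 and -0.05 for all families. In mango miR160 (387 and 3889 RPM) and miR167 (5052 and 15327 RPM) stood higher in mature leaves while miR393, miR390 (58.7 and 15.1 RPM) and miR164 (456 and 224 RPM) stood lower. In the limma fit 0 of the 4 families tested were called and 1 (miR390) had an unadjusted p under 0.05. Over all 13 families these counts were 2 and 3. The list had a median log2 fold change of -0.92, beside -0.91 over all 13.

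Of 6 leaf and organ development families, 5 were in the table and 4 passed the filter in each species, namely miR164, miR166, miR394 and miR396. By RPM, 3 of the 4 were at least 2-fold lower in mature avocado, 2 in macadamia and 2 in mango. Over all families 8 of 15, 6 of 18 and 6 of 16 were lower. In mango miR166 was at least 2-fold higher, beside 5 of 16 families in all. Under both other scalings the avocado count of lower members was 0, beside 4 of 15 families lower in all. Relative to the median family miR394 was itself at least 2-fold higher there, beside 6 of 15 families in all. In macadamia miR394 was the only member at least 2-fold lower under both, beside 5 of 18 families. In mango 1 member (miR394) was lower relative to the median family, beside 5 of 16 families. As shares 3 were lower in mango, beside 8 of 15, and miR166 was no longer 2-fold higher. By RPM miR394 was the avocado member under 2-fold, and in macadamia it was lower together with miR166, a regulator of class III HD-ZIP genes. The median log2 ratio of the list was -1.42, -1.02 and -0.94, beside -1.39, -0.53 and -0.05 over all families. By limma 0 of the 4 were called and 0 had an unadjusted p under 0.05, beside 2 and 3 of all 13 families. The list had a median log2 fold change of -1.01. Of 3 families directed at F-box transcripts, miR393, miR394 and miR2111, the last was not among the values and the first 2 are described above.

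The families most like each member were taken by the Euclidean distance between their 3 log2 ratios. For miR393 they were miR319 at a distance of 2.45, miR171 at 2.71 and miR394 at 2.76, and for miR394 they were miR319 at 1.5, miR171 at 1.82 and miR408 at 1.90. miR319 did not pass 10 RPM in any species and miR408 only in macadamia, so the distances to these 2 rest on few reads. miR171, which targets GRAS transcription factors, went from 1159 RPM in juvenile to 2319 RPM in mature avocado leaves, from 248 to 30.9 RPM in macadamia leaves and from 228 to 43.4 RPM in mango leaves. Like miR393 it was higher in mature avocado and lower in mature macadamia and mango. The likeness is over 3 species only and is a description.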

How the data were processed

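Small RNA was sequenced from 1 library per species and age. The authors trimmed adapters (Trim Galore), discarded ribosomal reads (BBduk) and used SCRAM to count the rest against miRBase entries of Arabidopsis (50 listed) and rice (73 listed), with versions not given in the sources used here. Deposited values are RPM, scaled by the authors to the reads of 20 to 24 nt and given to 3 decimals. Such scaling makes each value a share of its library. Columns were matched to samples by title, and 0 were left unassigned.

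A family's value was the sum of its distinct sequences on the more abundant arm and of those that name no arm. Depth was the smallest number of reads at which all values of a library were whole within rounding (100% of values, at most 0.00375 reads off). Whole multiples of it would fit as well and would narrow the intervals. Log2 ratios used a pseudocount of 1 RPM. limma 3.58.1 (R 4.3.3) was fitted on all families past 10 RPM in every species, blocked by species, and called at a Benjamini-Hochberg adjusted p of 0.05. Each family alone had 2 residual degrees of freedom. The p-values and intervals used the variance that limma pooled over the families, and each family got the same standard error of 0.91. The SD of the log2 ratios over species ran from 0.52 (miR164 and miR396) to 2.75 (miR393). For miR393 and miR394 the intervals are thus narrower than their own spread at those degrees would give. This does not hold for families of small spread such as miR164. Other values came from Python 3.11.15 (scipy 1.17.1, numpy 2.4.6, pandas 2.3.3, matplotlib 3.10.9). The depth search, the intervals of ratios and the blocked limma fit were tested on simulated data, and the other steps were not. The data simulated for limma had the same spread for each feature, unlike the families here, so behaviour at unequal spreads was not tested. The text names all sequences of miR393 and miR394, the 3 families nearest to each by log2 ratios, and members of 3 lists. miR395 was singled out after its values were seen. Members and lists were chosen with earlier results of these data known. Alternatives were other scalings, pseudocounts, filters, fold thresholds, arms and entries, sequences as features, no block, and leaving out each species. The PCR measurements of the study were not analysed here, and their outcome for miR394 is cited from the paper.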

Additional observations from a re-analysis of the deposited data

Results flagged for a closer look

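miR393 was higher in mature leaves of avocado and lower in those of macadamia and mango. The mature over juvenile log2 ratio in avocado exceeded that in macadamia by 2.73 and that in mango by 5.50. The Arabidopsis sequence showed differences of 2.19 and 5.78 and the rice sequence differences of 2.79 and 5.04 in the same order. The mango value of the Arabidopsis sequence rests on 2 reads in mature leaves. These differences were not tested, since each species has 1 library per age, and the macadamia log2 ratio of miR393 was -0.18 relative to the median family.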

How the results depend on the processing

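Scaling moved the most values. Rescaled to a median log2 ratio of 0, miR394 in avocado reversed to 1.06, and miR394 in macadamia moved to -1.20, miR393 in avocado to 3.41 and miR393 in macadamia to -0.18. As shares of the listed miRNA reads, the log2 ratios of miR394 were 0.75 in avocado (reversed), -1.29 in macadamia and -3.56 in mango, and those of miR393 were 3.07 in avocado and -4.41 in mango. Pseudocounts of 0.1 and 5 RPM, both arms and the most abundant entry alone moved each of the 6 log2 ratios by less than the counting interval extends on that side of it. The largest of these moves were in miR393 in mango, to -2.89 at 5 RPM and -2.85 with the most abundant entry, values that lie nearer to 0 than the interval of its plain fold. With the most abundant entry alone the number of miR394 reads per miR393 read was 188 in juvenile and 30.6 in mature avocado leaves, 33.6 and 15.6 in macadamia leaves, and 15.8 and 23.8 in mango leaves, by construction, since 1 of the 2 miR393 sequences was dropped. At a 4-fold threshold 6 families changed in avocado, 4 in macadamia and 6 in mango, in place of 11, 8 and 11, and at 1.5-fold 13 changed in macadamia. In limma the miR393 effect reversed to 0.65 without mango. Over the alternatives its log2 fold change ran from -2.10 to 0.65 (adjusted p from 0.113 to 0.944) and that of miR394 from -2.10 to -0.85 (0.113 to 0.705), with 0 calls of either. miR393 has no value at a filter of 50 RPM, which it does not pass in macadamia. limma called 1 family in place of 2 after rescaling, as shares of the listed reads, with no filter and with no species block, and 0 without avocado (5 at an unadjusted p under 0.05, both members among them), without macadamia (1) or without mango (2). The cause was not tested. The labels carry no replicate numbers, and the juvenile and mature libraries were paired by species. The planned count test on recovered reads was not run, because the table holds too few low values for a separate check that RPM steps are single reads. Depth limits miR393 more than miR394, with 26 reads in mature mango and 43 in mature macadamia.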
